A study of Mus musculus with 3 samples.

Results

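The genes described here encode the receptors for acetylcholine, serotonin, noradrenaline and adrenaline, and dopamine. They were chosen by symbol alone, as every gene of the deposited feature lists named Chrna, Chrnb, Chrnd, Chrne, Chrng, Chrm1 to Chrm5, Htr1 to Htr7, Adra1, Adra2, Adrb1 to Adrb3 or Drd1 to Drd5. This gave 49 genes, present in both the tendon list of 33696 features and the dorsal root ganglion (DRG) list of 35980 features. They were 16 nicotinic acetylcholine receptor subunits, 5 muscarinic acetylcholine receptors, 14 serotonin receptors, 6 alpha and 3 beta adrenergic receptors, and 5 dopamine receptors.

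Nicotinic receptors and the serotonin receptor built from Htr3 subunits are ion channels assembled from several subunits, so a channel forms only where a suitable set is made in the same cell. The other receptors of these families are single proteins that signal through G proteins: Gs raises cyclic AMP, Gi lowers it, and Gq releases stored calcium. In sensory ganglia such receptors are known for setting the excitability of neurons and of their central terminals, and in tendon they are found on vessels, immune cells and stromal cells.

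The study compared Achilles tendon of C57BL/6 mice after cutting of the sural nerve with tendon after a sham operation, and also profiled DRG. The neurectomy group (5 mice) had the nerve transected, followed after 1 week by dorsiflexion of the immobilised foot for 4 weeks. The sham group (5 mice) had the nerve exposed only and was immobilised in the same way for 4 weeks. The DRG library came from 18 ganglia of 6 mice. They had received 5 µL of a tdTomato vector in the left tendon sheath at 4 weeks of age, and the ganglia were taken 4 weeks later. The labels name the vector as AAV-PHP.S in the protocol and as a lentivirus in the treatment field, and they differ on whether ganglia of the injected side alone or of both sides were taken. No age is given for the tendon mice, and the animals of a group were pooled.

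Each group was 1 droplet library, so no difference between groups or classes has a replicate check. Intervals in brackets are 95% exact intervals (Poisson for levels, conditional binomial for ratios, Clopper-Pearson for shares), and they cover counting error only. The neurectomy, sham and DRG libraries held 25067, 32951 and 23566 barcodes with medians of 1212, 1065 and 3422 UMIs (unique molecular identifiers). The tendon libraries shared 1001 barcodes, 3.99% of the smaller library, and the DRG library shared 153 with the neurectomy and 189 with the sham library. Of the barcodes given a class, 337 in the neurectomy, 262 in the sham and 238 in the DRG library were shared. Where a call between the tendon libraries changed without them, this is stated beside it for receptor genes with at least 50 UMIs in a class. For pairs with fewer UMIs and for pathway genes no ratio without them is given.

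Classes were gated barcode by barcode from marker genes, none of which is a receptor of these families, and the class names stand for barcodes that passed such a gate. The gates took in 7560 neurectomy, 8640 sham and 16327 DRG barcodes and left 65.6%, 65.9% and 27.1% of barcodes with no class. Among the barcodes of the classes shown, 15.2% in the DRG, 23.2% in the neurectomy and 27.1% in the sham library lay within 0.05 of a gate's limits. The DRG gate for perineurial cells was led by fibroblast genes and stayed unnamed. A level is the summed UMIs of a gene per 1000000 UMIs of the class (CPM). The DRG and tendon tables rest on different annotations, so their levels are set side by side without a comparison. In these libraries a lower level in a class cannot be told apart from fewer expressing cells within it, and the levels named below as lower in the neurectomy library are given with the number of barcodes that had a UMI.

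Most of the receptor genes that could be tested were higher in neurons than in the other ganglion classes, and they differed in which neurons held them. In the 3523 neurons, whose median was 47193 UMIs, 10 of the 49 genes reached 10 CPM, against 24.7% of all genes of the table. Among the 36 receptor genes with at least 50 UMIs over neurons and the other classes, 22 (61.1%) were at least 2-fold higher in neurons, where 27.9% of all genes so tested were. Another 8 (22.2%) were at least 2-fold lower in neurons, where 32.1% of all genes were. The summed level of the 12 neuron markers was 13433 CPM in neurons and at most 1192 CPM in any other class.

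The nicotinic subunits Chrna3, Chrna6, Chrnb2, Chrnb3 and Chrnb4 were almost absent outside neurons. Chrna3, the ligand-binding subunit of ganglionic-type channels, had 2544 UMIs in neurons and 2 in all other classes together. Its partner Chrnb4 had 1212 UMIs in neurons and 12 elsewhere, a level ratio of 35.3 (20.1 to 68.5). Chrna6, another ligand-binding subunit, had 3953 and 9, a ratio of 153 (80.7 to 336). Chrnb3, an accessory subunit known to join Chrna6 channels, had 1959 and 8, a ratio of 85.5 (43.3 to 198). Each of these subunits thus had at least 35 times its level of the other classes in neurons.

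The heteromeric serotonin channel and most metabotropic serotonin receptors followed the same division. Htr1f, a Gi-coupled receptor, had 16092 UMIs in neurons and 41 in the other classes, a ratio of 137 (101 to 191). Htr3a, the subunit every serotonin-gated channel needs, had 7867 and 53, a ratio of 51.8 (39.6 to 69.3). Htr4, coupled to Gs, had 4376 and 20, a ratio of 76.4 (49.4 to 125). Htr1a, Htr1d, Htr5a, Htr5b and Htr3b were also at least 25-fold higher in neurons. Of the muscarinic receptors, the Gi-coupled Chrm2 was higher in neurons, with a ratio of 10.9 (8.74 to 13.8), and the Gq-coupled Chrm3 lower, with a ratio of 0.109 (0.0951 to 0.124).

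**Figure D1:**
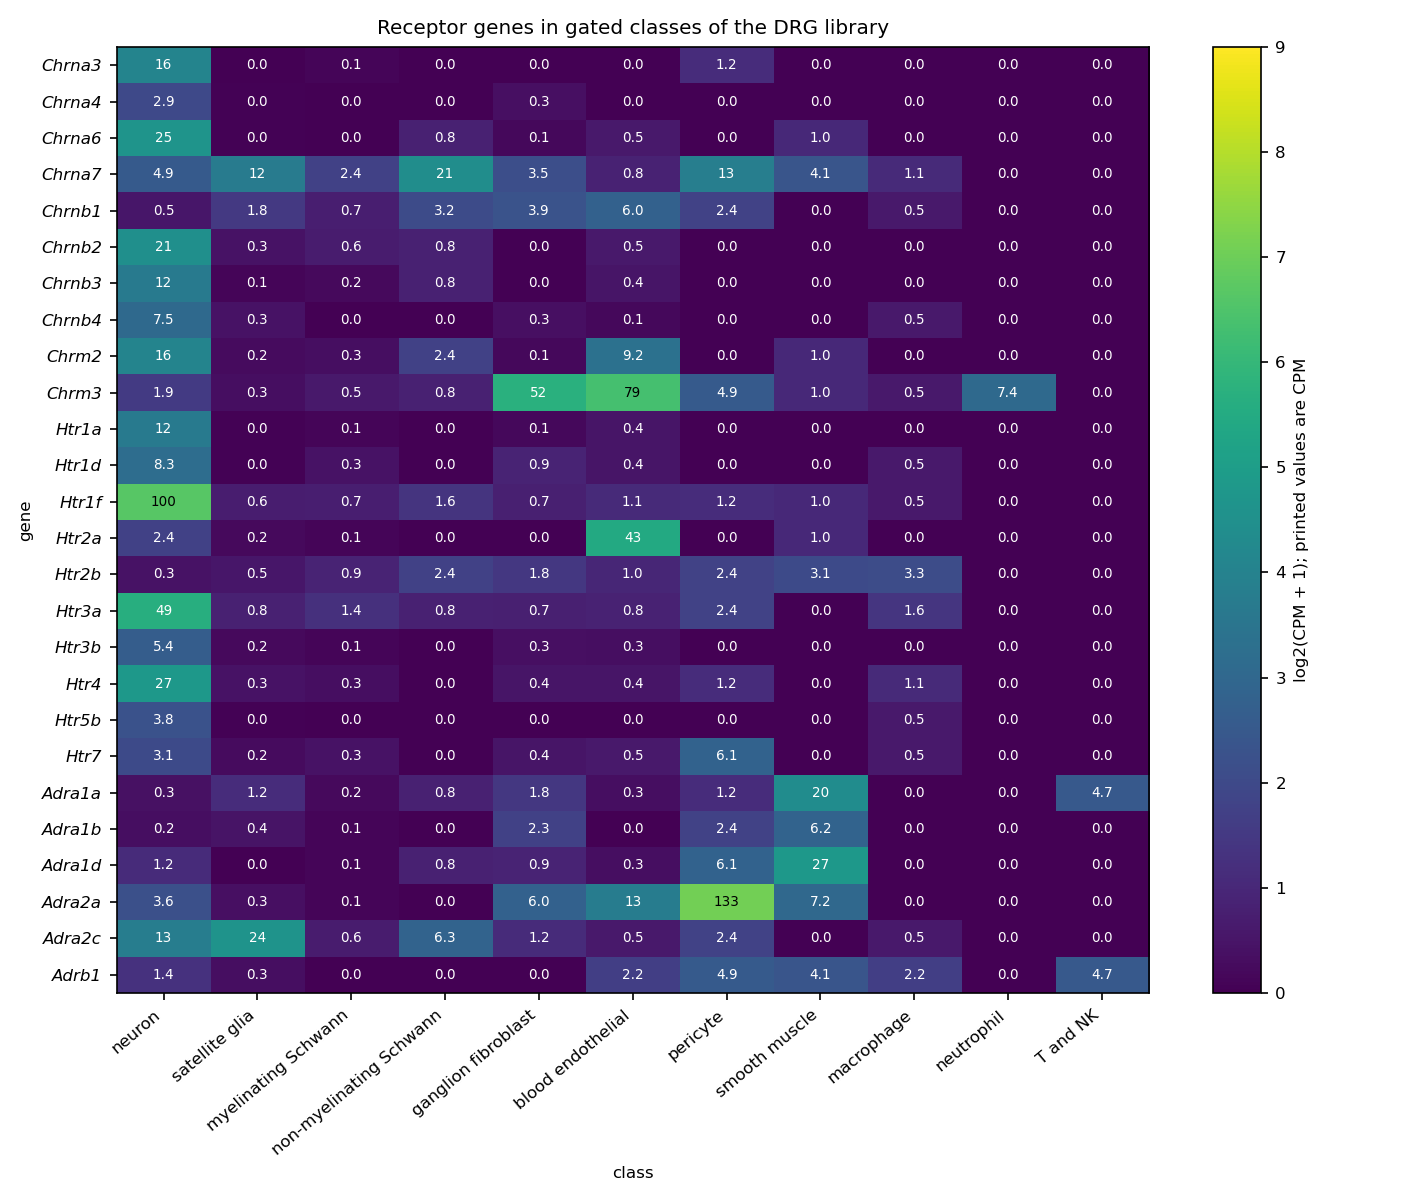
Levels of 26 named receptor genes (rows) in 11 gated classes of the DRG library (columns), coloured by log2(CPM + 1) with the CPM printed in each cell. Chrna3, Chrna6, Htr1f, Htr3a and Htr4 fill the neuron column, and Chrm3 and Htr2a are highest in blood endothelial cells.

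Adra2a and Adra2c, Gi-coupled alpha-2 receptors, were highest in different classes. Adra2a was at 133 CPM (109 to 161) in pericytes, the contractile cells of capillaries, at 12.7 CPM in blood endothelial cells and at 3.62 CPM in neurons. Adra2c was at 23.5 CPM (21.6 to 25.6) in satellite glia, the cells that wrap neuron bodies, and at 13.0 CPM (12.4 to 13.5) in neurons, with 0.611 CPM in myelinating Schwann cells. The Gq-coupled alpha-1 genes Adra1d and Adra1a were highest in the 256 smooth muscle cells, at 26.9 CPM (26 UMIs) and 19.6 CPM (19 UMIs).

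Chrna7, the subunit of homomeric nicotinic channels, was the only nicotinic gene to reach 10 CPM with 20 UMIs in a glial class. It was at 20.5 CPM (13.4 to 30.1) in non-myelinating Schwann cells, 12.4 CPM (11.0 to 13.9) in satellite glia, 4.90 CPM (4.56 to 5.25) in neurons and 2.36 CPM in myelinating Schwann cells. The 26 UMIs in non-myelinating Schwann cells lay in 19 of 635 barcodes, and 5 of those barcodes held 46.2% of them. Chrm3 was at 79.5 CPM (73.2 to 86.2) in blood endothelial cells and 51.9 CPM (46.6 to 57.5) in ganglion fibroblasts. Htr2a, a Gq-coupled serotonin receptor, was at 42.9 CPM (38.3 to 47.9) in blood endothelial cells and at 2.38 CPM in neurons. Htr7, coupled to Gs, had 148 UMIs in 31 of the 48 barcodes of the dendritic cell gate, 426 CPM (360 to 501), a small class led by Cd74 and other genes of antigen presentation. When that class was taken from clusters instead, the level was 123 CPM.

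Neurons were divided into 9 subtypes by marker genes, which gave a subtype to 2338 of the 3523. They were 714 Mrgprd neurons (unmyelinated, mostly skin nociceptors), 575 peptidergic C and 106 peptidergic A neurons (unmyelinated and lightly myelinated nociceptors with neuropeptides), and 346 C-LTMR (unmyelinated low-threshold touch neurons). There were also 184 Nppb and Sst neurons (itch neurons), 178 Trpm8 neurons (cold), 106 Mrgpra3 neurons (itch), 86 A-LTMR (myelinated touch neurons) and 43 proprioceptors (muscle stretch). Every one of the 28 receptor genes with at least 50 UMIs over the subtypes was at least 2-fold higher in at least 1 subtype than in the others together, where 48.5% of all such genes were. Of the 28, 14 were so in 1 subtype, 7 in 2, 5 in 3 and 2 in 4. The limit was set on UMIs summed over the subtypes, so a gene with few UMIs could pass it through the subtype where it was high. An example was Chrm1, with 36 of its 57 UMIs in peptidergic C neurons. The count of 28 is a description and is not read as a trait of the receptor families. Proprioceptors, with 43 neurons, had the most such genes (10).

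Chrna3 and Chrnb4 marked the same neurons. Chrna3 stood at 102 CPM (91.7 to 113) in peptidergic A neurons, 72.3 CPM in proprioceptors, 16.9 CPM in A-LTMR and 11.5 CPM (10.2 to 12.9) in peptidergic C neurons, and at 2.67 CPM or less in the other 5 subtypes. Chrnb4 stood at 33.1 CPM (27.3 to 39.6), 25.1 CPM, 5.10 CPM and 8.25 CPM in those 4 subtypes and at 1.17 CPM or less in the rest, with no UMI in Mrgpra3 neurons, which allows a level of up to 0.435 CPM. Across the 9 subtypes the log2(CPM + 1) of these genes had a Pearson correlation of 0.983, against a median of 0.0953 over 171 pairs of receptor genes. The subtypes are parts of 1 library and this is a description only.

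The proprioceptor value rested on few cells. All 101 Chrna3 UMIs of the proprioceptor gate lay in 5 of its 43 neurons, and 51 of them in 1 neuron, and all 35 Chrnb4 UMIs lay in 4 neurons. In A-LTMR 5 of 86 neurons held 37 of the 53 Chrna3 UMIs, and 5 of 575 peptidergic C neurons held 118 of 292. In peptidergic A neurons the 358 Chrna3 UMIs lay in 42 of 106 neurons, with 10.9% in the highest. When each neuron was thinned to 10000 UMIs, which left out 642 shallower neurons, Chrna3 had a UMI in 38.2% (27.2 to 50.02) of 76 peptidergic A neurons and in 3.92% (2.44 to 5.93) of 536 peptidergic C neurons. Unthinned, at median depths of 35450 and 46412 UMIs, the shares were 39.6% and 6.78%. Myelinating Schwann cells, which should lack the gene, had a UMI in 0.0237% of barcodes at a median depth of 2328 UMIs.

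The pairing held neuron by neuron. Of the 193 thinned neurons with a Chrna3 UMI, 51.3% (44.0 to 58.5) also had a Chrnb4 UMI, against 1.90% (1.42 to 2.49) of the 2688 neurons without one. The serotonin channel gene Htr3a was found in 61.7% (54.4 to 68.5) of the same 193 neurons and in 12.4% (11.2 to 13.7) of the rest. Most of these UMIs came from neurons that passed no subtype gate. Those 1185 neurons held 21.6% of all neuron UMIs, yet 63.3% of the Chrna3, 64.9% of the Chrnb4 and 65.0% of the Htr3a UMIs of neurons. Their levels were 46.1 CPM (43.9 to 48.4) for Chrna3, 22.5 CPM (21.0 to 24.2) for Chrnb4 and 147 CPM (143 to 151) for Htr3a.

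Chrna3 and Chrnb4 are neighbours on the same strand of mouse chromosome 9, with no gene between them. The 250 bases before the start that the RefSeq promoter table gives for each are shown because, of the 7 pairs for which likeness was computed by name, this pair was the most alike. The sequences are from RefSeq (GRCm38.p6), on the minus strand, at chr9:55026563-55026812 and chr9:55048545-55048794, and 37 of the 49 receptor genes matched an entry. Capitals mark matches, on both strands, to a GC box (GGGCGG), an E box (CANNTG), a homeodomain core (TAATTA) and a Runt core (TGTGGT), and matches of the E box can overlap.
Chrna3: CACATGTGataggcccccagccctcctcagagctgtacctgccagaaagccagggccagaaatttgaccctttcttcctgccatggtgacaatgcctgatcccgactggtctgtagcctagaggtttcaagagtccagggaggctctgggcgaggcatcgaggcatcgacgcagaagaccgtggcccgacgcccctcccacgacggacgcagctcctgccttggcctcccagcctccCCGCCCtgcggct
Chrnb4: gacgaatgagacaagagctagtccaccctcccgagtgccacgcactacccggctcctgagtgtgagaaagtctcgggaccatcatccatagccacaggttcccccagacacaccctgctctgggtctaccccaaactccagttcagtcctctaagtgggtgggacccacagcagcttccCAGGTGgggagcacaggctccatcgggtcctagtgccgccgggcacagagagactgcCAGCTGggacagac
The Chrna3 window held 1 GC box and 2 overlapping E boxes, and the Chrnb4 window held 2 E boxes and no GC box. Of all 32851 windows of this length, 32.7% held a GC box, 66.2% an E box, 4.84% the homeodomain core and 14.0% the Runt core. The GC content was 63.2% and 61.2%, where the median of all windows was 52.4%. Chrna5, which overlaps Chrna3, had 18 UMIs in neurons. How reads of overlapping genes were assigned is not given in the sources used here.

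Chrna6 and Chrnb3, also neighbours with no gene between them, were alike only in part. Chrna6 stood at 56.6 CPM (52.1 to 61.4) in Nppb and Sst neurons, 40.3 CPM (37.8 to 42.8) in peptidergic C, 28.3 CPM (26.8 to 29.7) in Mrgprd, 19.8 CPM in A-LTMR and 12.5 CPM in Mrgpra3 neurons, and at 3.94 CPM or less in the other 4. Chrnb3 stood at 42.6 CPM (40.1 to 45.3) in peptidergic C neurons and at 5.48 CPM or less in every other subtype. Nppb and Sst neurons, highest for Chrna6, had 2.10 CPM of Chrnb3, and 5 neurons held 95.5% of those 22 UMIs. Chrnb3 was found in 18.8% (15.4 to 22.5) of 495 thinned neurons with Chrna6 and in 7.21% (6.20 to 8.32) of those without. Chrnb2, the subunit that pairs with Chrna4 in the brain, was found in 18.2% of neurons with Chrna6 and 18.7% of those without, and their intervals overlap.

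Chrnb2 was the broadest subunit, from 6.68 CPM in Nppb and Sst neurons to 52.3 CPM (41.0 to 65.7) in proprioceptors. Chrna4 was found in fewer, at 18.2 CPM (16.2 to 20.3) in C-LTMR, 9.55 CPM (7.77 to 11.6) in Nppb and Sst neurons and 3.58 CPM or less elsewhere. Chrna7 was at 22.5 CPM (17.8 to 28.1) in peptidergic A and 17.1 CPM (14.2 to 20.5) in Mrgpra3 neurons, whose intervals overlap, and at 4.34 CPM or less in the others. Chrna10, known from hair cells, missed the naming limit of 10 CPM and is mentioned because 27 of its 32 subtype UMIs lay in the 106 peptidergic A neurons (7.69 CPM). The endplate subunits Chrna1, Chrnd, Chrne and Chrng had 54, 1, 54 and 1 UMIs in the whole DRG library.

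**Figure D2:**
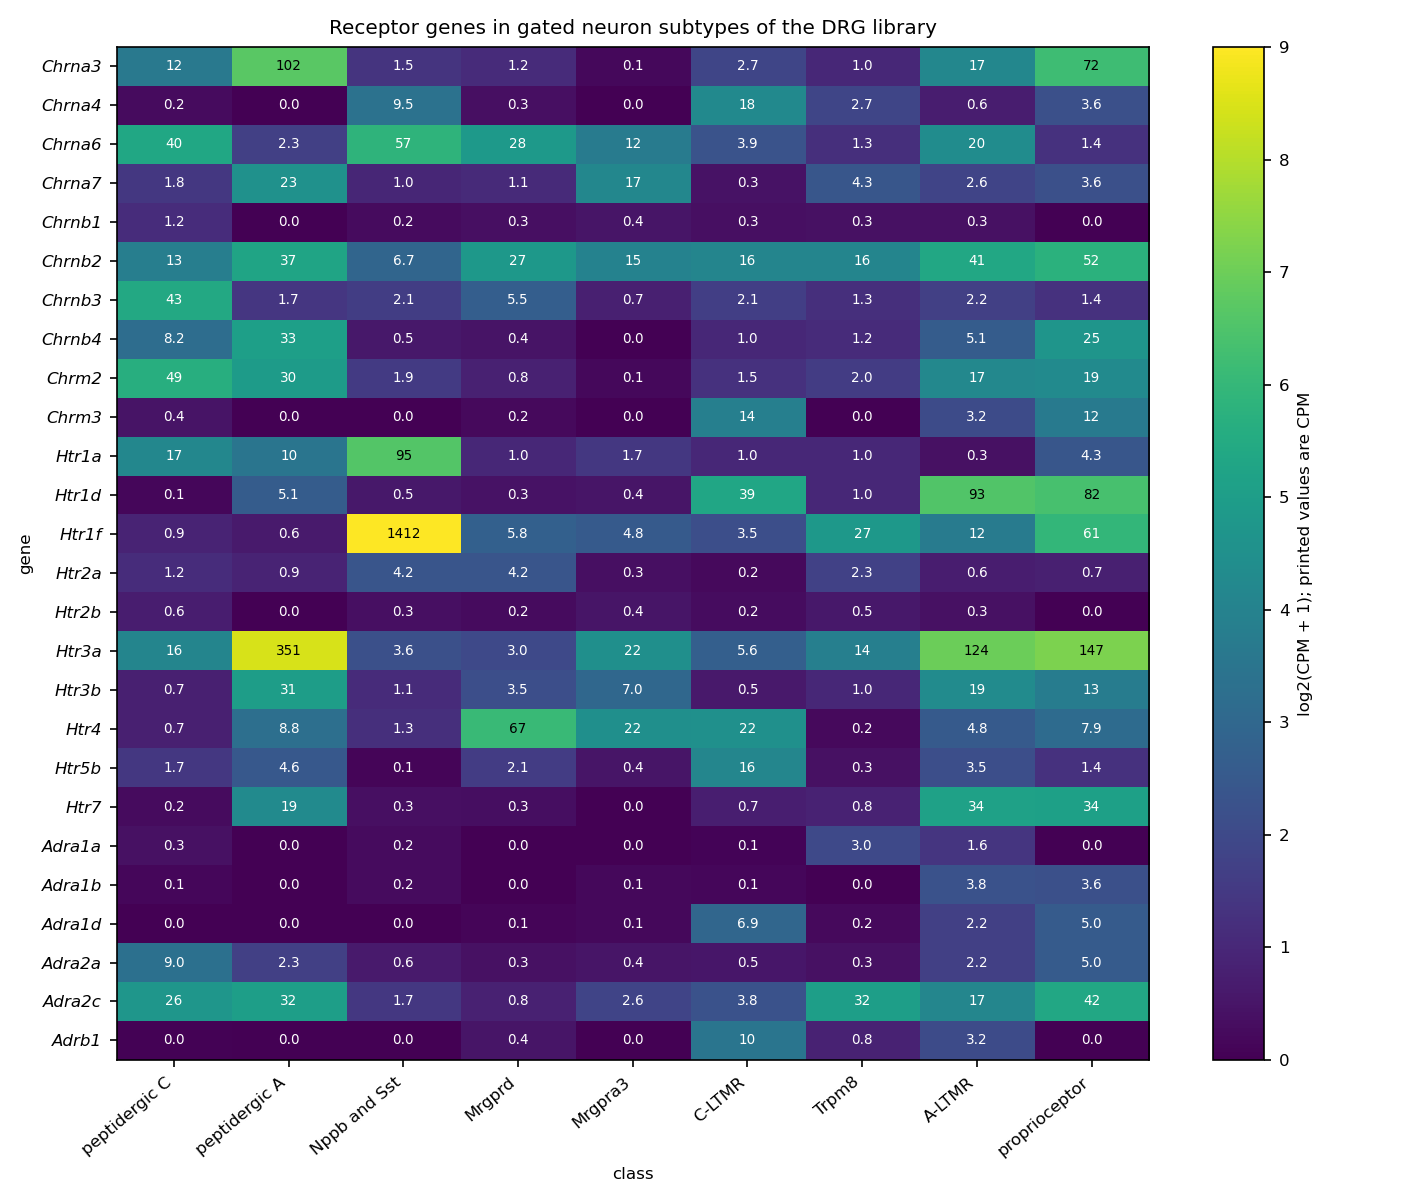
Levels of 26 named receptor genes (rows) in 9 gated neuron subtypes of the DRG library (columns), coloured by log2(CPM + 1) up to a value of 9 with the CPM printed in each cell. Htr1f is brightest in Nppb and Sst neurons, Htr3a in peptidergic A neurons and Htr4 in Mrgprd neurons, while Chrnb2 spreads over all 9 columns at 6.68 to 52.3 CPM.

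The muscarinic genes divided the neurons differently. Chrm2 was at 49.2 CPM (46.5 to 52.0) in peptidergic C neurons, where 81.6% of its subtype UMIs lay, and at 29.6 CPM (24.2 to 35.9) in peptidergic A neurons. Proprioceptors had 18.6 CPM and A-LTMR 17.2 CPM of it, and the other 5 subtypes 40 UMIs or fewer each. These UMIs lay in few cells: 5 of 43 proprioceptors held 20 of 26, and 5 of 86 A-LTMR neurons held 59.3%. Thinned, Chrm2 had a UMI in 28.2% (24.4 to 32.2) of peptidergic C neurons. Chrm3 was at 13.7 CPM (12.1 to 15.6) in C-LTMR and 12.2 CPM (17 UMIs) in proprioceptors, with no UMI in 4 subtypes. Chrm4, Gi-coupled like Chrm2, was highest in Mrgprd neurons at 5.18 CPM (4.58 to 5.83). Chrm1 had 57 UMIs in the subtypes, of which 36 were in peptidergic C neurons.

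Among the serotonin receptors, Htr1f was held almost wholly by 1 subtype. Nppb and Sst neurons had 1412 CPM of it (14793 UMIs), 95.5% of its subtype UMIs and 232 times (215 to 251) the level of the other subtypes. Proprioceptors had 60.9 CPM (48.6 to 75.3), Trpm8 neurons 27.0 CPM (23.0 to 31.5), A-LTMR 12.4 CPM and the rest 5.75 CPM or less. In thinned neurons it had a UMI in 98.3% (95.2 to 99.7) of 181 Nppb and Sst neurons, in 40.6% (23.7 to 59.4) of 32 proprioceptors and in 12.6% (8.10 to 18.5) of 174 Trpm8 neurons. The unthinned shares were 98.4%, 51.2% and 22.5%, and the share in myelinating Schwann cells was 0.189%. Mrgprd neurons had 301 Htr1f UMIs, and 66.1% of them lay in 5 of 714 neurons.

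Htr1a was highest in the same subtype, at 95.1 CPM (89.3 to 101) in Nppb and Sst neurons, but was also at 17.1 CPM (15.5 to 18.8) in peptidergic C and 10.3 CPM (7.18 to 14.2) in peptidergic A neurons, where Htr1f was at 0.868 and 0.570 CPM. Of 267 thinned neurons with Htr1f, 117 (43.8%) had Htr1a, against 4.78% (4.00 to 5.67) of 2614 without. Both encode Gi-coupled receptors on different chromosomes. The bases before their starts are shown because the genes share their highest subtype, at chr16:65105785-65106034 on the minus strand and chr13:105443443-105443692 on the plus strand, with capitals as above.
Htr1f: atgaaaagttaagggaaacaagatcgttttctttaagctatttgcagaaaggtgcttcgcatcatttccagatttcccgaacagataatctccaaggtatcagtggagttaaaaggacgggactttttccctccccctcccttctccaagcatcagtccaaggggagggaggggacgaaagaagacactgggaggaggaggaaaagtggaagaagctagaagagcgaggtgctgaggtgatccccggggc
Htr1a: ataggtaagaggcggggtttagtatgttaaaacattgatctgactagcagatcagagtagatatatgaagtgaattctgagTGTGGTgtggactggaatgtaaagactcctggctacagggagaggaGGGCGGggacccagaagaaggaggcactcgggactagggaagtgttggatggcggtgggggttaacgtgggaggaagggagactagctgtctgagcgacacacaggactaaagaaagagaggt
The Htr1f window held none of the 4 motifs, and the Htr1a window held 1 GC box and 1 Runt core. Their GC content was 49.2% and 50.4%.

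The channel subunits Htr3a and Htr3b were highest in the peptidergic A neurons that also held Chrna3. Htr3a stood at 351 CPM (332 to 371) there, at 147 CPM (127 to 168) in proprioceptors and 124 CPM (112 to 137) in A-LTMR, whose intervals overlap, at 21.6 CPM in Mrgpra3 neurons and at 15.9 CPM or less in the rest. Of the 205 proprioceptor UMIs, 195 lay in 5 neurons. Htr3b, which forms channels only together with Htr3a, stood at 31.3 CPM (25.8 to 37.8) in peptidergic A, 19.1 CPM (14.6 to 24.6) in A-LTMR and 12.9 CPM (7.64 to 20.4) in proprioceptors. Thinned, Htr3a had a UMI in 80.3% (69.5 to 88.5) of 76 peptidergic A neurons, and the unthinned share was 81.1%. Htr3b was found in 19.2% (15.7 to 23.2) of 452 neurons with Htr3a and in 1.89% (1.39 to 2.52) of those without. Mrgprd neurons, in which Htr3a was lowest at 3.00 CPM (2.55 to 3.51), had 3.46 CPM (2.97 to 4.00) of Htr3b.

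**Figure D3:**
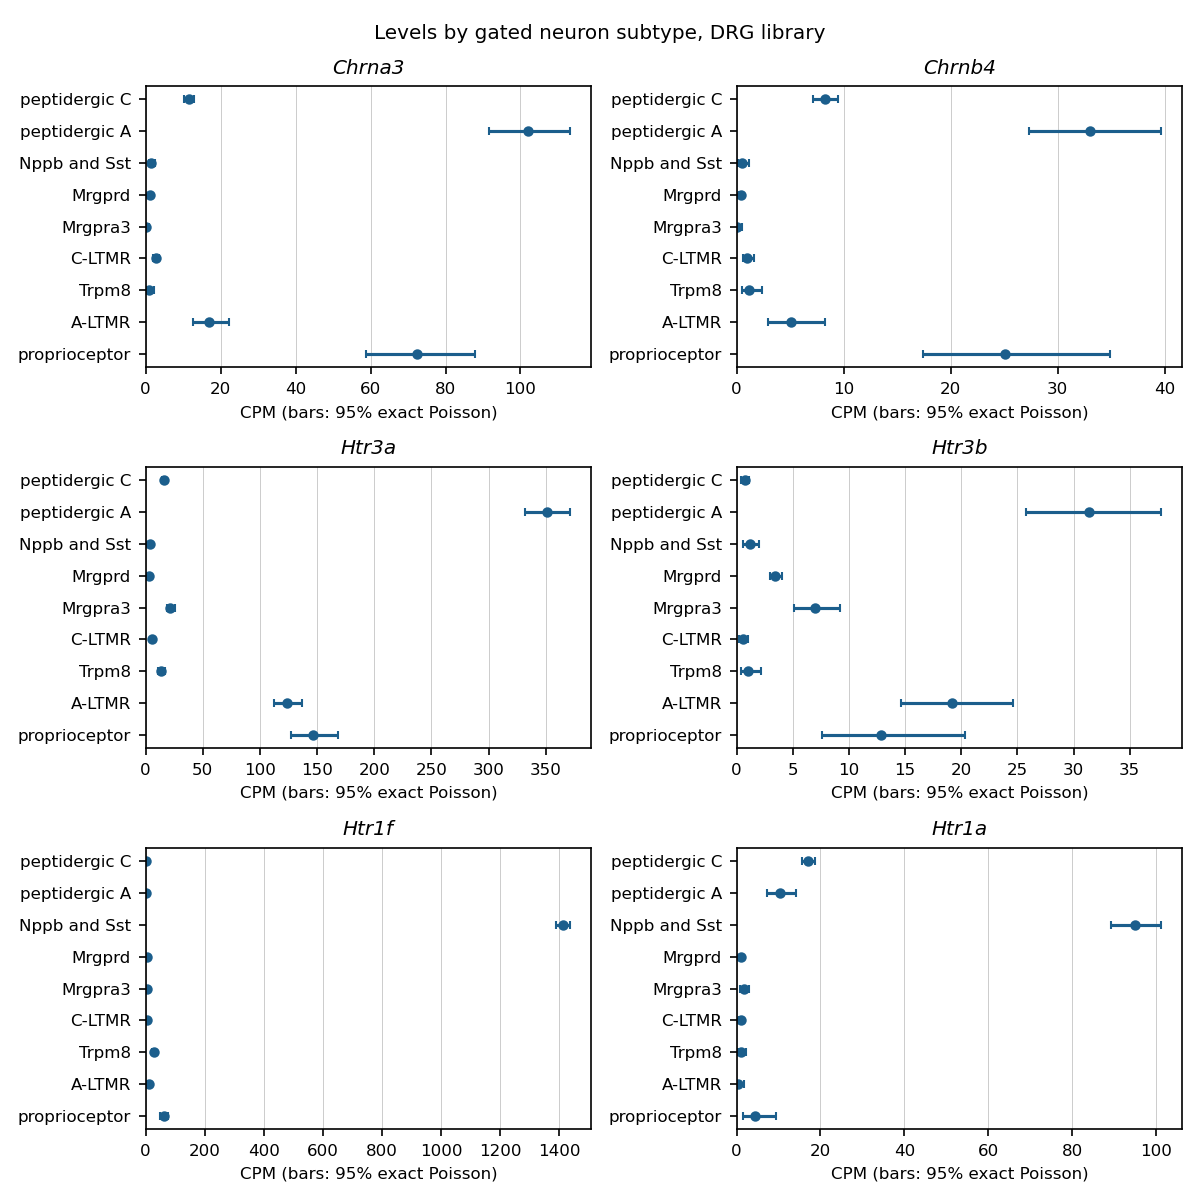
Levels in CPM (x axis, linear, with 95% exact Poisson bars) of Chrna3, Chrnb4, Htr3a, Htr3b, Htr1f and Htr1a in the 9 neuron subtypes of the DRG library (y axis), 1 point per subtype. Peptidergic A neurons are the highest point of the first 4 genes and Nppb and Sst neurons the highest point of Htr1f (1412 CPM) and Htr1a (95.1 CPM).

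Htr1d and Htr7 were highest in the large myelinated neurons. Htr1d, coupled to Gi, was at 92.8 CPM (82.5 to 104) in A-LTMR, 81.6 CPM (67.3 to 98.1) in proprioceptors and 39.4 CPM (36.5 to 42.5) in C-LTMR, and at 5.13 CPM or less elsewhere. With mitochondrial UMIs limited to 5%, its A-LTMR level was 60.5 CPM. Htr7 was at 34.1 CPM (28.0 to 41.2) in A-LTMR, 33.7 CPM (24.7 to 44.8) in proprioceptors and 18.8 CPM (14.5 to 23.9) in peptidergic A neurons, and at 0.834 CPM or less in the rest, C-LTMR included. A-LTMR and proprioceptors did not differ beyond their intervals for either gene. Thinned, Htr1d had a UMI in 59.4% (40.6 to 76.3) of proprioceptors, 46.6% (34.8 to 58.6) of A-LTMR and 29.7% (24.9 to 34.9) of C-LTMR, and unthinned in 74.4%, 64.0% and 81.8%. The order of C-LTMR thus differed between thinned and unthinned shares, at median depths of 24872, 34300 and 50830 UMIs.

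Htr4 was highest in Mrgprd neurons, at 66.8 CPM (64.6 to 69.0), with 85.1% of its subtype UMIs. C-LTMR and Mrgpra3 neurons had 21.8 and 21.6 CPM of it and the other 6 subtypes 8.83 CPM or less. Thinned, 45.1% (41.3 to 48.9) of 670 Mrgprd neurons had an Htr4 UMI, and unthinned 90.2% did. Htr5b was highest in C-LTMR at 16.5 CPM (14.6 to 18.5). Htr2a stayed below 10 CPM in every subtype, with 4.24 CPM in Mrgprd and 4.20 CPM in Nppb and Sst neurons.

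The adrenergic genes were low in neurons apart from Adra2c. It was at 41.5 CPM (31.5 to 53.7) in proprioceptors, 32.2 CPM (27.8 to 37.1) in Trpm8, 32.2 CPM (26.5 to 38.7) in peptidergic A and 25.5 CPM (23.6 to 27.6) in peptidergic C neurons, and at 0.764 CPM in Mrgprd neurons. Thinned, 25.3% (19.0 to 32.4) of Trpm8 neurons had a UMI of it, and 57.9% did unthinned. Adra2a was highest in peptidergic C neurons at 9.03 CPM (7.90 to 10.3), 15.7 times (11.7 to 21.4) the level of the other subtypes. C-LTMR stood out for Adrb1, the Gs-coupled beta-1 receptor, at 10.2 CPM (8.76 to 11.8), and for Adra1d, at 6.90 CPM (5.72 to 8.26), with 82.2% and 85.0% of the subtype UMIs. Of the dopamine receptors, Drd3 had 43 of its 80 subtype UMIs in Nppb and Sst neurons (4.10 CPM), and Drd1, Drd4 and Drd5 had 43, 3 and 3 UMIs in the whole library.

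Other genes of the same pathways were taken from fixed lists. Of the 5 genes of acetylcholine synthesis and breakdown, 2 reached 10 CPM in neurons. They were Slc5a7, the choline transporter, at 11.1 CPM, and Ache, the acetylcholine-degrading enzyme, at 29.5 CPM. Chat and Slc18a3, needed to make and load acetylcholine, had no UMI in the neurons, which allows up to 0.0186 CPM. Slc5a7 was at 33.6 CPM (31.4 to 35.9) in peptidergic C neurons. Of the 8 genes of nicotinic receptor assembly and of the Ly6 proteins that bind such receptors, 4 reached 10 CPM in neurons. Lynx1, a brake on nicotinic channels, was at 437 CPM (415 to 459) in peptidergic A, 359 CPM in proprioceptors and 291 CPM in A-LTMR, and Ly6h at 223 CPM (208 to 240) in peptidergic A neurons. Of the 5 endplate genes, only Rapsn, which clusters nicotinic receptors in muscle, reached 10 CPM in neurons, at 25.5 CPM. Of the 7 genes of serotonin synthesis, uptake and breakdown, only Maoa reached 10 CPM in neurons (56.7 CPM), with Tph2 at 1.60 CPM and the transporter Slc6a4 at 0.279 CPM. Of the 6 catecholamine genes 2 did, among them Th, which is itself a marker of the C-LTMR gate. All 14 genes of G proteins and receptor desensitisation reached it.

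Neurons with vector UMIs were set beside those without for the 34 receptor genes with at least 50 UMIs in them. There were 252 neurons with at least 2 UMIs of the 4 vector features and 3163 with none. The interval of the ratio lay above 1 for 10 of the 34 genes and below 1 for 7, against 18.8% and 18.2% of all genes, and it held 1 for 17, among them Chrna6 at 0.900 (0.796 to 1.02) and Chrnb3 at 1.02 (0.860 to 1.20). The ratio farthest above 1 was that of Chrm1, at 3.55 (2.06 to 5.88) with 21 and 65 UMIs. Those with vector UMIs had 2.67 times (2.41 to 2.96) the level of Chrna3, 2.29 times (1.95 to 2.67) that of Chrnb4, 2.62 times (2.47 to 2.77) that of Htr3a, 2.62 times (2.17 to 3.14) that of Chrna7, 2.86 times (2.27 to 3.57) that of Htr7 and 0.519 times (0.480 to 0.559) that of Htr1f. Subtypes differed in how many neurons had vector UMIs: 26.4% of peptidergic A, 17.0% of Mrgpra3, 14.0% of proprioceptor and 11.6% of A-LTMR neurons, and 2.81% to 7.30% of the others. The part of this mix in the ratios was not tested.

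In tendon, 9 of the 49 genes reached 10 CPM in both libraries in at least 1 class, where 35.4% of all genes did. None of the 49 did so in tenocytes, the main cells of tendon (1911 neurectomy and 3049 sham barcodes), where the highest was Htr2a at 8.81 CPM (7.45 to 10.3) in the neurectomy and 7.15 CPM (6.25 to 8.14) in the sham library. The tendon Schwann gate held 154 and 64 barcodes, and none of the 49 reached 10 CPM with 20 UMIs in it in either library.

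Chrm3 was found in endothelial cells and fibroblasts of tendon. Lymphatic endothelial cells had 459 CPM (434 to 485) of it in the neurectomy and 379 CPM (361 to 399) in the sham library, stromal fibroblasts 159 CPM (143 to 176) and 131 CPM (119 to 143), and blood endothelial cells 100 CPM (89.1 to 112) and 112 CPM (102 to 124). Each of these classes was high in both libraries. The lymphatic levels rested on 1258 and 1567 UMIs in classes of 759 and 661 barcodes. Without the barcodes shared between libraries they were 427 CPM (757 UMIs, 710 barcodes) and 375 CPM (649 UMIs, 613 barcodes). The Pi16 fibroblasts, a connective tissue fibroblast, had 58.7 CPM in the neurectomy and 19.9 CPM in the sham library. Htr2a was at 55.5 CPM (47.4 to 64.5) and 60.3 CPM (52.7 to 68.6) in blood endothelial cells and at 22.0 and 23.9 CPM in Pi16 fibroblasts. Chrnb1, the beta subunit known from the endplate, was at 27.4 CPM (21.5 to 34.3) and 25.7 CPM (21.0 to 31.0) in lymphatic endothelial cells.

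The adrenergic genes were highest in different tendon classes. Adra1b was at 36.6 CPM (30.9 to 43.2) and 30.2 CPM (26.4 to 34.4) in Pi16 fibroblasts. Adra1a was at 167 CPM (129 to 214) and 96.2 CPM (73.0 to 124) in smooth muscle, and Adra2a at 36.2 CPM (10 UMIs) and 79.7 CPM (27 UMIs) in pericytes. In the same pericytes Htr7 was at 134 CPM (94.4 to 185) and 171 CPM (130 to 221). Of the 27 sham UMIs of Adra2a, 15 lay in 1 of 95 barcodes, and of the 64 neurectomy UMIs of Adra1a in smooth muscle, 33 lay in 1 of 112 barcodes. At most 5% mitochondrial UMIs, the neurectomy level of Adra1a was 44.2 CPM.

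**Figure D4:**
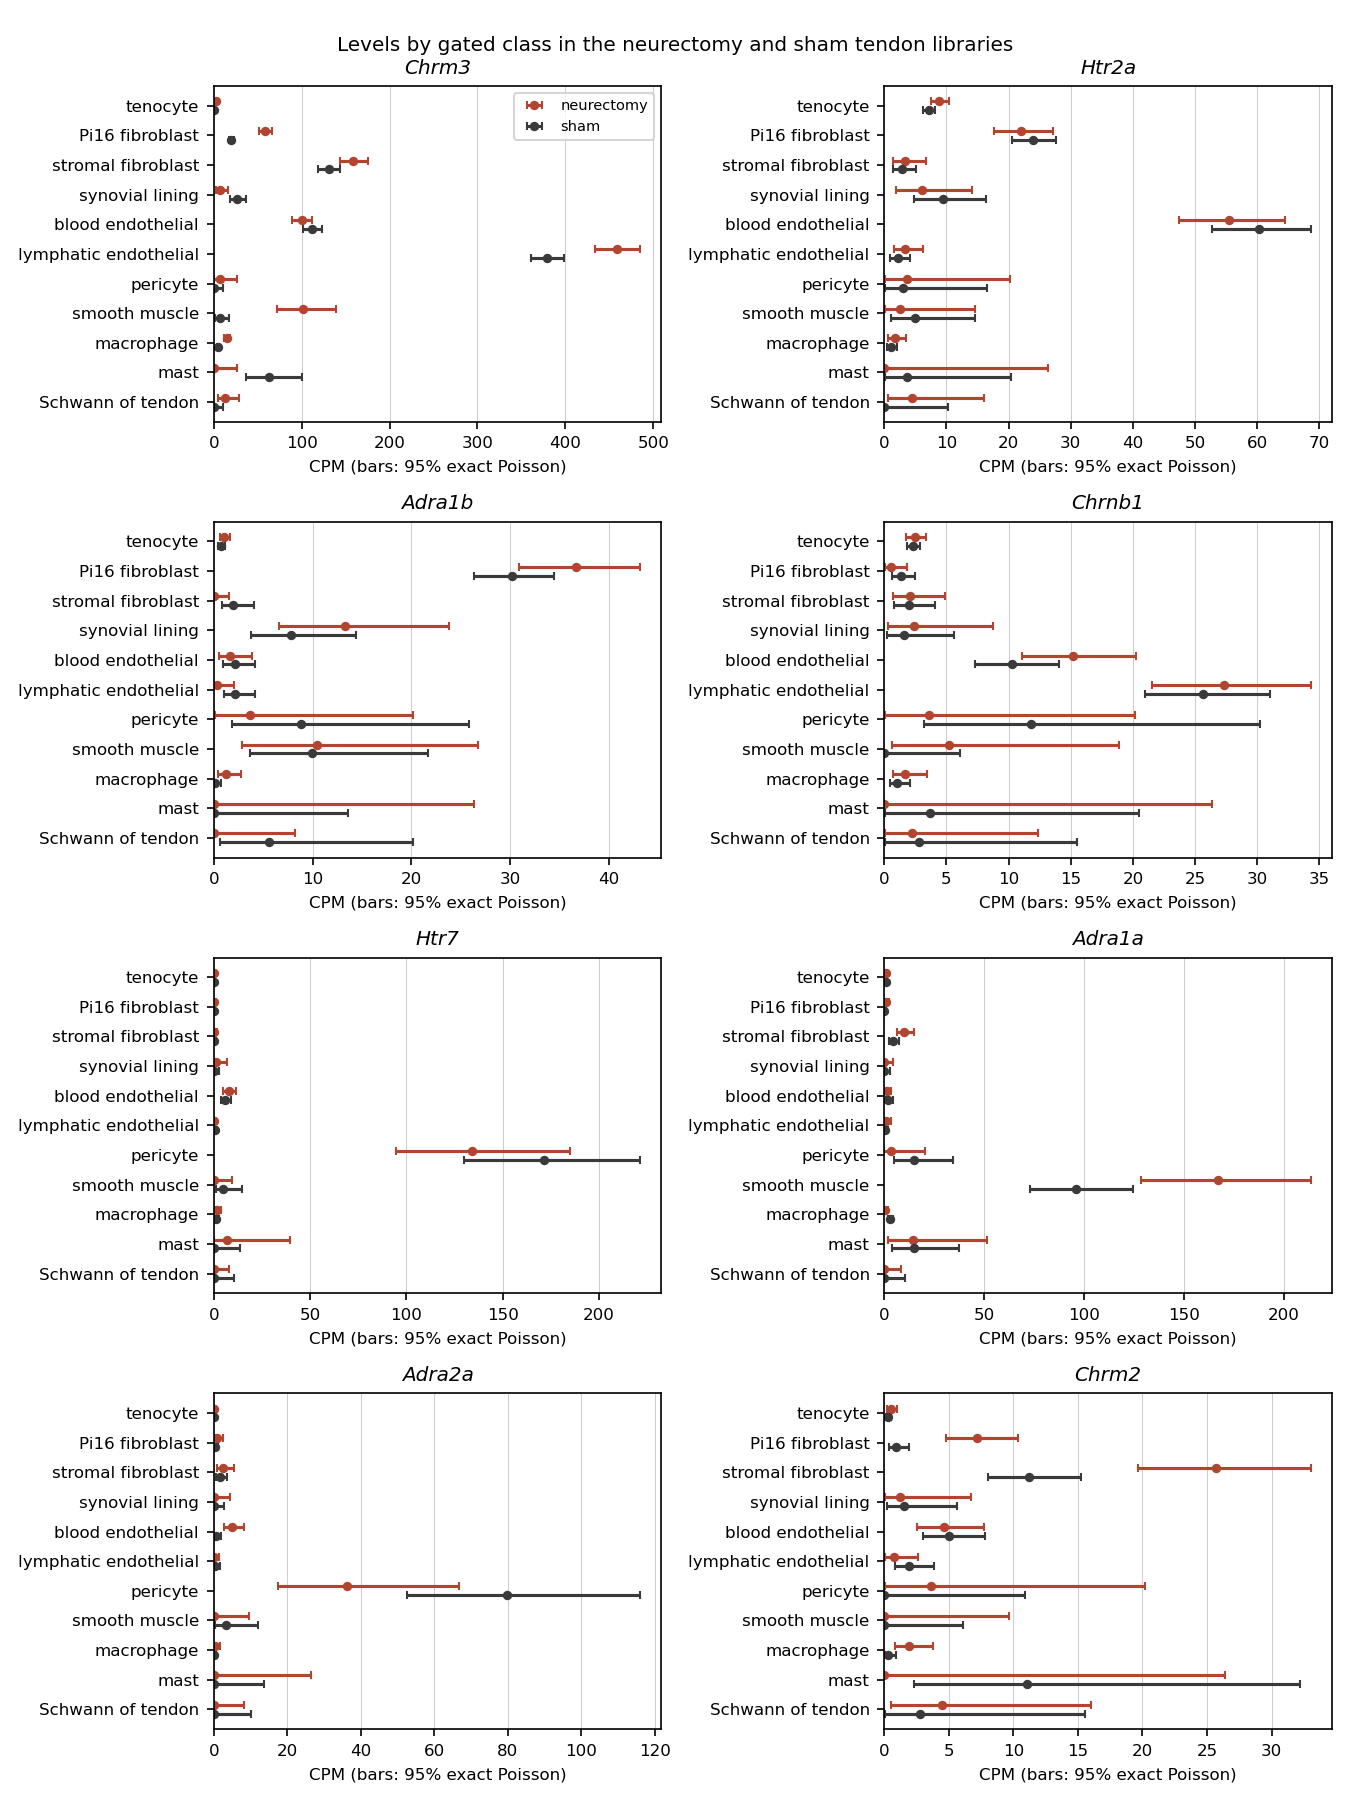
Levels in CPM (x axis, linear, with 95% exact Poisson bars) of 8 receptor genes in the gated tendon classes (y axis), with the neurectomy library in red and the sham library in black. Chrm3 is highest in lymphatic endothelial cells and Htr7 in pericytes in both libraries.

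The mast cell gate held 85 neurectomy and 92 sham barcodes. The gate was under the 100 barcodes asked of a class in the comparison below. Chrm3 had no UMI in neurectomy mast cells, which allows up to 21.4 CPM, and 17 UMIs (62.5 CPM) in 8 of the sham mast cells. Mast cells also held the genes that make serotonin in tendon: Tph1, its rate-limiting enzyme, was at 243 CPM (168 to 339) and 143 CPM (102 to 196), and the serotonin transporter Slc6a4 at 657 and 231 CPM. In Pi16 fibroblasts the noradrenaline transporter Slc6a2 was at 32.3 CPM (26.9 to 38.4) and 27.7 CPM (24.0 to 31.7), while Th and Chat had no UMI in any tendon class of either library.

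The neurectomy and sham libraries were compared within the classes of at least 100 barcodes in each, for genes with at least 50 UMIs over both. A difference was called at 2-fold, which is a statement about these 2 libraries. The interval took no part in the call, and it left out 1 in each receptor pair called. Of 25 pairs of receptor gene and class, 5 were higher and 1 lower in the neurectomy library, and 3.72% of the 75401 pairs of all genes were called in either direction. With the limit at 20 UMIs the share of all pairs was 7.07%, so pairs with few UMIs were called more often. All called receptor pairs but Chrm3 in Pi16 fibroblasts had 79 UMIs or fewer in each library. No share for pairs of like counts is given here. The median log2 ratio of the 8 receptor genes in tenocytes was 0.04, and that of all 13710 genes was 0.05. The other 19 pairs were not called. The blood endothelial class, with 4 pairs tested and none called, had 1.79% of all genes called, and synovial lining cells, with no receptor pair tested, 4.01%. Without the shared barcodes Htr6 in tenocytes, at a ratio of 1.92 (1.25 to 2.95) with them, was called at 2.62 (1.61 to 4.27).

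Chrm3 accounted for 3 of the 6 calls. Its ratio was 2.95 (2.39 to 3.65) in Pi16 fibroblasts, 3.21 (2.09 to 5.01) in macrophages and 3.42 (2.12 to 5.63) in tenocytes, where 2.36%, 4.00% and 4.51% of all genes were called. Macrophages had median depths of 1459 UMIs in the neurectomy and 2508 UMIs in the sham library, and Chrm3 levels of 14.7 and 4.57 CPM. In tenocytes they were low, at 3.01 and 0.881 CPM (51 and 28 UMIs in 44 of 1911 and 25 of 3049 barcodes). In its highest class, lymphatic endothelial cells, the ratio was 1.21 (1.12 to 1.30). Few barcodes carried these UMIs: 53 of the 229 in neurectomy Pi16 fibroblasts and 29 of the 61 in neurectomy macrophages lay in 1 barcode each. Without the barcode with most UMIs in each library the ratios were 2.53 (2.01 to 3.19), 2.19 (1.27 to 3.81) and 3.76 (2.26 to 6.42). Without the shared barcodes they were 2.93 (2.37 to 3.64), 3.05 (1.98 to 4.76) and 4.99 (2.96 to 8.65). With at least 5000 UMIs per barcode, the tenocyte ratio was 0.40 on the log2 scale, where it was 1.77 in all barcodes. As a mean over barcodes the macrophage ratio was 0.87 on the log2 scale, in place of 1.68, which is also under 2-fold. The summed level of the 6 lymphatic endothelial markers in the neurectomy and sham libraries was 42.0 and 35.4 CPM in Pi16 fibroblasts, 36.2 and 20.6 CPM in tenocytes, and 453 and 655 CPM in macrophages, where Lyve1 of that list is also known to be expressed. The part of lymphatic RNA in these levels was not tested.

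Chrm2 in stromal fibroblasts was at 25.7 CPM (19.7 to 33.0) in the neurectomy and 11.2 CPM (8.01 to 15.3) in the sham library, a ratio of 2.29 (1.51 to 3.51), in a class where 2.58% of all genes were called. It was 0.26 on the log2 scale, in place of 1.20, when classes were taken from clusters. The median depth of this class was 1448 UMIs in the neurectomy and 3192 UMIs in the sham library. With at least 5000 UMIs per barcode the Chrm2 ratio was 2.57 (1.60 to 4.16). The part of depth in the ratio was not tested. Chrna7 in tenocytes was the call in the other direction, with 18 neurectomy and 79 sham UMIs and a ratio of 0.428 (0.241 to 0.721). These UMIs lay in 12 of 1911 and 44 of 3049 barcodes. Adra2c in tenocytes fell short of the call, at 3.84 and 6.89 CPM and a ratio of 0.557 (0.416 to 0.738), with a UMI in 49 and 153 barcodes. Htr2b in lymphatic endothelial cells had 47 and 35 UMIs and a ratio of 2.02 (1.28 to 3.23), in a class where 2.5% of all genes were called. That call did not hold: on the log2 scale it was 1.02, and -0.04 without the barcodes shared between libraries and -0.11 as a mean over barcodes.

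**Figure D5:**
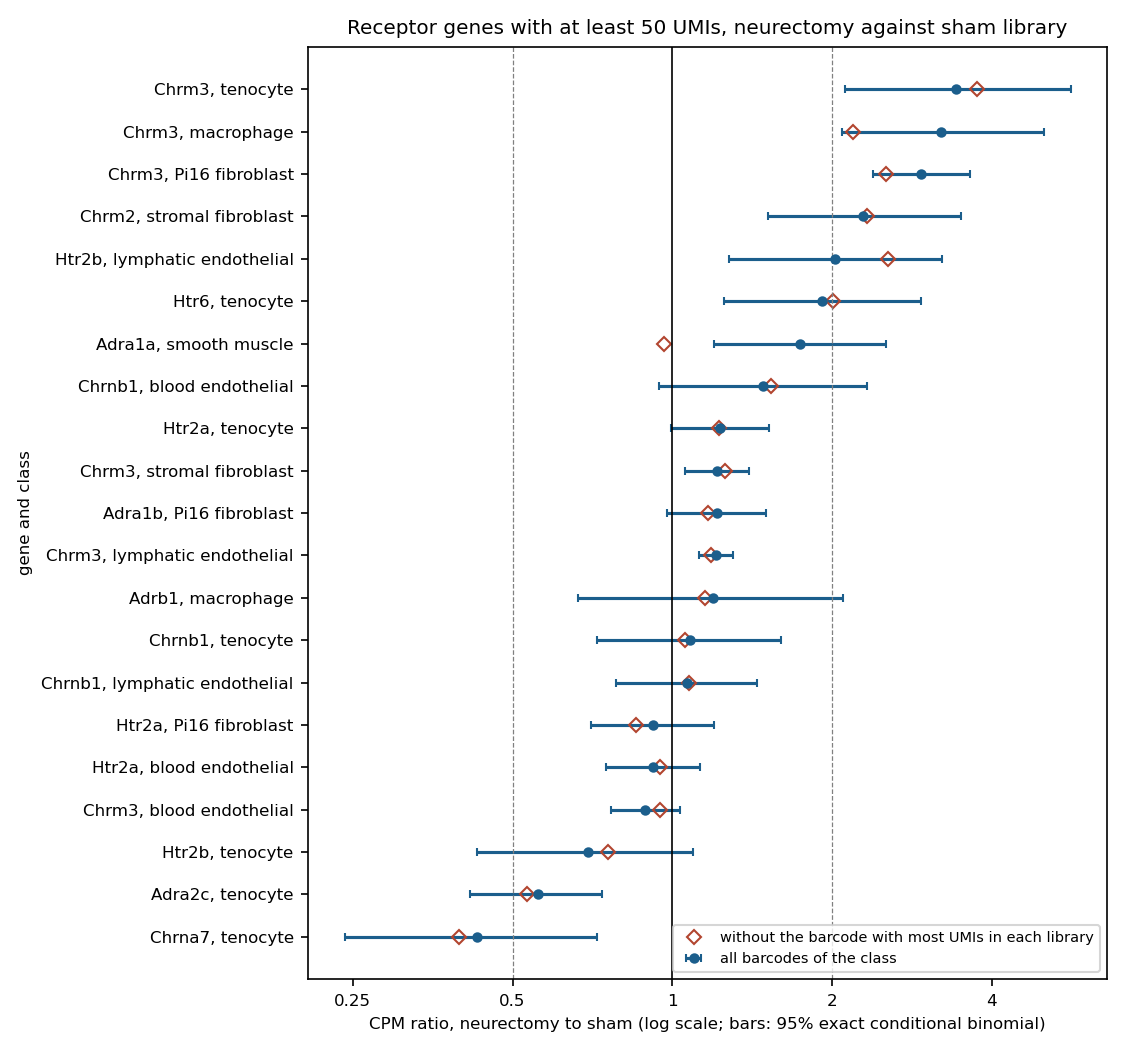
Ratio of CPM in the neurectomy to the sham library (x axis, log scale) for 21 pairs of receptor gene and tendon class with at least 50 UMIs (y axis), with 95% exact conditional binomial bars. Open diamonds leave out the barcode with most UMIs in each library. Adra1a in smooth muscle moves from 1.74 to 0.966, and Chrm3 in macrophages from 3.21 to 2.19.

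Of the 17 pairs with 20 to 49 UMIs, which were under the limit, 3 were 2-fold higher and 3 lower in the neurectomy library. At 20 UMIs or more, 8 of 42 receptor pairs were higher and 4 lower. Of the 94758 pairs of all genes at that limit, 6696 (7.07%) were called. They include the 75401 pairs with at least 50 UMIs, of which 2805 were called. The 7.07% is thus no share for pairs with 20 to 49 UMIs alone. As 3.72% of the pairs with at least 50 UMIs were called, the share of all pairs with 20 to 49 UMIs lay above 7.07%. The 3 higher and 3 lower receptor pairs are not read as a result about the receptors. Chrm3 in smooth muscle had 39 UMIs (102 CPM) in 23 neurectomy barcodes and 4 UMIs (6.63 CPM) in 4 sham barcodes. In synovial lining cells it went the other way, with 6 UMIs in 5 neurectomy and 34 UMIs in 8 sham barcodes, a ratio of 0.273 (0.0938 to 0.658), and 22 of the 34 lay in 1 barcode. The other higher pairs were Chrm2 in Pi16 fibroblasts (28 and 7 UMIs, of which 16 and 5 lay in 1 barcode each) and Adra1a in stromal fibroblasts (24 and 16 UMIs). The other lower pairs were Adra2c in blood endothelial cells (6 and 26 UMIs in 5 and 21 barcodes) and Adra1a in macrophages (2 and 23 UMIs in 2 and 9 barcodes).

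The ratio of Adra1a in smooth muscle was 1.74 (1.20 to 2.52) with all barcodes, 0.966 (0.598 to 1.54) without the highest barcode of each library, and 2.23 (1.54 to 3.24) without the shared barcodes. In this class 15.0% of all genes tested were called, the highest share of the 8 classes. The summed level of the 7 blood endothelial markers in it was 1481 CPM in the neurectomy and 126 CPM in the sham library, and that of the 8 tenocyte markers 4486 and 1297 CPM, and the part of these cells in the receptor levels was not tested. Of the listed pathway genes, Slc5a7 in Pi16 fibroblasts was lower in the neurectomy library, with 19 and 177 UMIs and a ratio of 0.206 (0.121 to 0.331). The 19 lay in 11 of 710 and the 177 in 40 of 878 barcodes, and 1 sham barcode held 40 of the 177. It was the only 1 of its list with enough UMIs in a class to be compared. Of the other lists, nicotinic assembly had 16 pairs tested and 1 called (Ly6e in smooth muscle, higher at a ratio of 7.62), the G protein list 79 and 1 (Grk5 in smooth muscle, higher at 2.48), and the endplate, serotonin and catecholamine lists 12, 11 and 10 with 0 called.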

How the data were processed

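Receptor genes and lists were chosen with earlier results of these data known. The authors deposited raw UMI counts for each feature and barcode, and the file headers name Cell Ranger 8.0.1. The submitters' notes list mm10 and GRCm39 as builds, with no library given for either, and the annotation release is not given in the sources used here. Ganglion cells were enriched on a density gradient, per the labels' protocols, which can set the shares of classes.

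Barcodes needed 500 genes and no more than 15% of UMIs from mitochondrial genes, which 21992, 25306 and 22384 met in the neurectomy, sham and DRG libraries. Each barcode was scored for each class by the mean log-scaled count of its markers above the level in the shallowest 20% of barcodes, scaled to the top 50 barcodes. A class asked for 3 such markers, a score of 0.25 and a margin of 0.1 to the second-best class. A neuron subtype asked for 0.2 and 0.05. Barcodes that scored for more than 1 class within that margin were left without one, and no doublet caller was used in the main gate. Raw counts were summed per class and scaled to CPM, and no p-value was computed. The interval code was tested on simulated counts.

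A receptor gene is named with its values where it reached 10 CPM and 20 UMIs in a class, subtype or tendon class, which 27 of 49 did: 8 nicotinic, 2 muscarinic, 10 serotonin, 5 alpha and 2 beta adrenergic genes. Of the other 22, only some are given with counts of their own, and those that are singled out were chosen after their values were seen. Some receptor and pathway genes are counted but not reported here by name. The tools were Python 3.11.15, numpy 2.4.6, scipy 1.17.1, pandas 2.3.3, scanpy 1.11.5 and matplotlib 3.10.9.

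The alternatives were other limits on genes, mitochondrial UMIs and depth, a wider lead, removal of the top 8% of Scrublet scores, means over barcodes, classes from Leiden clusters, and a count minimum of 20. Leaving out barcodes shared between libraries, and the barcode with most UMIs of a gene, were chosen after seeing the data.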

Additional observations from a re-analysis of the deposited data

How the results depend on the processing

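The count of receptor genes at 10 CPM in DRG neurons (10) lay between 8 and 11 under the alternatives, that of receptor genes 2-fold higher in a subtype (28) between 22 and 38, and that at 10 CPM in a tendon class (9) between 6 and 10. The count of gene and class pairs 2-fold apart between neurectomy and sham was 6. It was 3 as a mean over barcodes of scaled counts and 12 with a count minimum of 20, where more pairs were tested, and 4 to 7 otherwise. Of 227 levels recomputed for the named genes, 187 stayed within their counting interval. Of 53 recomputed log2 ratios, 48 stayed within theirs and 2 changed sign. Both were Htr2b in lymphatic endothelial cells, with -0.1062 as a mean over barcodes and -0.03745 without shared barcodes, and the cause was not tested. With 5000 UMIs per barcode or more, the lymphatic endothelial, smooth muscle and synovial classes fell under 100 barcodes in a library and gave no ratio.

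No paired analysis was possible because each group is 1 library and the labels give no replicate numbers. Depth limits the tendon values: with medians of 1212 and 1065 UMIs per barcode, a receptor gene with fewer than 50 UMIs in a class was not compared, which left 25 pairs. Doublets were not removed in the main gate, and barcodes with no class (65.6% and 65.9% in tendon) are not described.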
